A study of Homo sapiens with 38 samples.

Results

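Metallothioneins are described here through 6 genes, MT1E, MT1F, MT1G, MT1H, MT1X and MT2A, taken from the count table by their symbols. They are 6 of the 57133 genes in the table, and all 6 were among the 16674 genes that passed the filter on low counts. The data are 38 libraries of Shef6, a human embryonic stem cell line, read by QuantSeq, which sequences each messenger RNA near its 3′ end. All libraries derive from naive cells that had been adapted to feeder-free growth on serum-coated dishes. They fall into 19 groups of 2 libraries, all grown in low oxygen. Naive cells were maintained in PXGL (N2B27 basal medium plus PD0325901, an inhibitor of MEK, XAV939, an inhibitor of tankyrase, Gö6983, an inhibitor of PKC, and the cytokine LIF) and were collected at day 0 from serum-coated or Geltrex-coated dishes. They were then capacitated, that is moved towards the primed state, always on Geltrex and after seeding with a ROCK inhibitor. The media were plain N2B27, E8 and mTeSR (defined commercial mixtures), N2B27 supplemented with XAV939 only (XAV), and N2B27 supplemented with XAV939, FGF2 and Activin A (FAX). Experiment 1 (Ex1) sampled both naive coatings, 5 days of N2B27 and of E8 (2, 3, 4, 6, 8) and the last 3 of those days in mTeSR. Experiment 2 (Ex2) sampled Geltrex naive cells and, at day 4, plain N2B27, XAV and FAX. The labels place the naive libraries of Ex2 at day 0, whereas their library names carry the tag d4, so the day of these 2 libraries is not certain, and the pooled naive reference and the comparison of the experiments both rest on them. All groups derive from 1 cell line, and the libraries of a pair come from the same experiment, so that p-values measure the spread between parallel libraries, which may be technical.

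Metallothioneins are small, cysteine-rich proteins of the cytoplasm and nucleus that bind zinc, copper and, on exposure, cadmium. They buffer the pool of free zinc, and their genes are switched on when zinc enters the cell, through the zinc-sensing transcription factor MTF1, which binds short metal response elements upstream of the genes. Glucocorticoids and oxidative stress are known to raise them as well. MT2A is the single gene of its type, and the MT1 genes are a group of recent duplicates whose products have nearly the same sequence.

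All 6 genes lie in 1 cluster on chromosome 16 (GRCh38, GENCODE release 44), within 75.6 kb. MT2A (chr16:56608584-56609497), MT1E (chr16:56625475-56627112), MT1F (chr16:56657731-56660698), MT1H (chr16:56669814-56671129) and MT1X (chr16:56682470-56684196) are annotated as protein-coding genes on the plus strand, and MT1G (chr16:56666730-56668065) is a protein-coding gene on the minus strand, head to head with MT1H. Promoter windows (250 bases before to 50 after the start of transcription, RefSeq on GRCh38.p14) matched 3 of the 6 by symbol, MT2A, MT1H and MT1X. The 250 bases before each start are printed, on the plus strand, because they show how densely the metal response element recurs in these 3 promoters. Capitals mark each match to the core of that element, searched as TGCACNC and TGCGCNC on both strands, so that a match on the other strand reads GNGTGCA or GNGCGCA.
MT2A, chr16:56608334-56608583: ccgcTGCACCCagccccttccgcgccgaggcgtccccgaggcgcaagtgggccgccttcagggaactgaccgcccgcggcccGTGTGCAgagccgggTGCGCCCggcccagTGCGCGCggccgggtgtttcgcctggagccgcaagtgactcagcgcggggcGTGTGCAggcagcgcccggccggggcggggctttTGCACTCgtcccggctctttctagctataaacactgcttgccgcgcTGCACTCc
MT1H, chr16:56669564-56669813: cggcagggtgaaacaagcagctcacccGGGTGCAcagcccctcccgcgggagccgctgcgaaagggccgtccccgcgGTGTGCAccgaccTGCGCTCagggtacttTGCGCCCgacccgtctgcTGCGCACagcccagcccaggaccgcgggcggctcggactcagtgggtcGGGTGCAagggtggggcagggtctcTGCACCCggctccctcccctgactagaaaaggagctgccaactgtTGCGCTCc
MT1X, chr16:56682220-56682469: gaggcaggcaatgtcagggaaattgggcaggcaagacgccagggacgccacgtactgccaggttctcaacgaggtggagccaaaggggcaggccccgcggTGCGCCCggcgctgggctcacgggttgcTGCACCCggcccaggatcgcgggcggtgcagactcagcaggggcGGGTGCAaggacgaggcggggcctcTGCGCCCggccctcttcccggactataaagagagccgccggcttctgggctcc

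The MT2A promoter held 8 cores, 6 of the TGCACNC form and 2 of the TGCGCNC form. The MT1H promoter also held 8, with 4 of each form, and the MT1X promoter held 4, with 2 of each. In MT2A, 7 of the 8 lie in the printed bases and 1 starts 30 bases after the start of transcription, and in the others all lie in the printed bases. No matches overlap. All 3 promoters have a core that begins 54 (MT2A) or 53 bases (MT1H, MT1X) before the start, and MT1H and MT1X also share the position 78 bases before it. Of the 35116 promoters of the full window length in the RefSeq table, 29.6% held at least 1 core, 0.601% held at least 4 and 0.0199% held at least 8. The promoters of MT1B and MT4, of the same family, held 3 each, a number that 2.3% of promoters reached. A match is a stretch of letters and not evidence of binding in these cells.

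**Figure D1:**
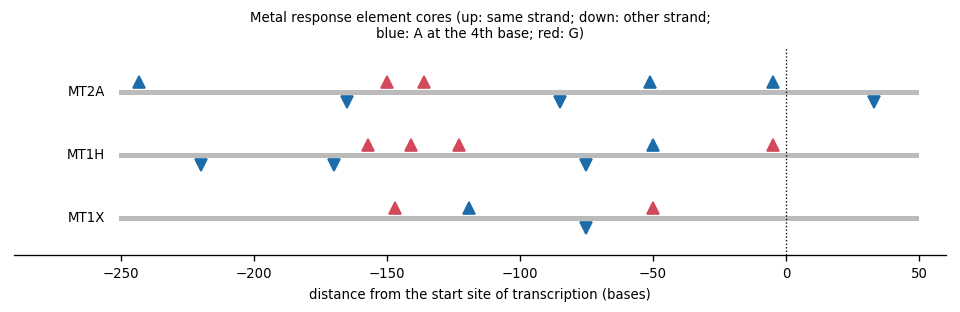
Positions of metal response element cores in the 3 promoters, with the distance from the start of transcription in bases on the horizontal axis. Triangles mark the middle of matches on the strand of the gene (up) or on the other strand (down), blue for TGCACNC and red for TGCGCNC; MT2A and MT1H show 8 each and MT1X shows 4.

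Because the copies are so alike, reads can fit more than 1 gene. Among the 251 windows of 50 bases (the read length) in the last 300 bases of each canonical transcript, the share also found in a transcript of another gene was 1.99% for MT1E, 9.16% for MT1F, 15.5% for MT2A, 28.3% for MT1H, 28.7% for MT1G and 30.7% for MT1X. MT1G and MT1X shared the most with each other (47 windows), and MT1H with MT1HL1, a related copy elsewhere in the genome (60 windows) that was listed at 0 to 9.81 CPM. The quantification splits such reads between the copies by probability, so the levels of MT1G, MT1H and MT1X are the least certain as separate genes. The sum over the 6 genes is given beside them and was not tested.

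Total counts per library ranged from 3038046 to 5612354. The markers separated naive from late cells: KLF17, DPPA5, SUSD2, TFCP2L1, KLF4 and DPPA3 summed to 1051 to 1392 CPM (counts scaled to a common library size with TMM factors, the unit of all levels here) in naive libraries and to 538 to 667 CPM at day 8, with N2B27 at days 2 and 3, E8 at day 3 and XAV reaching into the naive range, and the primed markers ZIC2, SALL2, CDH2 and DUSP6 went from 18.7 to 24.3 CPM there to 389 to 671 CPM at day 8. These are bulk libraries, in which fewer cells of a type and less RNA per cell cannot be told apart.

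The 6 genes were among the abundant transcripts of these cells. MT1G was highest, with a mean over the 38 libraries of 1018 CPM and rank 108 of 16674, and MT1X was lowest, with 183 CPM and rank 1172. MT1H (417 CPM), MT2A (411 CPM), MT1E (361 CPM) and MT1F (220.1 CPM) stood between. A 3′ tag count does not grow with transcript length, so these levels can be set side by side, within the limit of shared reads. Between the highest and the lowest group mean, MT1E varied 6.44-fold, MT1H 5.7-fold, MT1G 5.38-fold, MT2A 3.72-fold, MT1F 3.22-fold and MT1X 3.13-fold.

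Summed over the 6 genes, the level was 4470.5 ± 163 CPM (SD, n = 2, as for the sums that follow) in E8 at day 2, the highest group (4037 CPM on plain library totals), and 998 ± 33.2 CPM in mTeSR at day 8, the lowest. N2B27 at day 2 had the second highest mean (3778 ± 130.0 CPM), followed by E8 at day 4 (3649 ± 4.43 CPM), E8 at day 3 (3588 ± 227 CPM) and naive cells on serum (3542 ± 96.6 CPM), of which E8 at day 3 overlapped N2B27 at day 2, E8 at day 4 and naive cells on serum. Naive cells on Geltrex of Ex1 (3038 ± 57.6 CPM) and N2B27 at day 4 of Ex2 (3011 ± 70.9 CPM) overlapped as well. XAV (2869 ± 80.7 CPM), FAX (2794 ± 46.1 CPM), E8 at day 6 (2761 ± 44.3 CPM) and N2B27 at day 3 (2711 ± 492 CPM) formed a run in which each overlapped the next, the last of them with the widest spread of all groups. Below them, mTeSR at day 4 (2194 ± 65.8 CPM) stood alone, and N2B27 at day 4 of Ex1 (2082 ± 2.41 CPM), naive cells of Ex2 (2056 ± 92.7 CPM) and E8 at day 8 (1991 ± 159.5 CPM) overlapped in turn. N2B27 (1469.9 ± 12.4 CPM) and mTeSR (1447 ± 78 CPM) at day 6 overlapped, and N2B27 at day 8 (1152 ± 25.5 CPM) lay just above mTeSR at day 8.

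**Figure D2:**
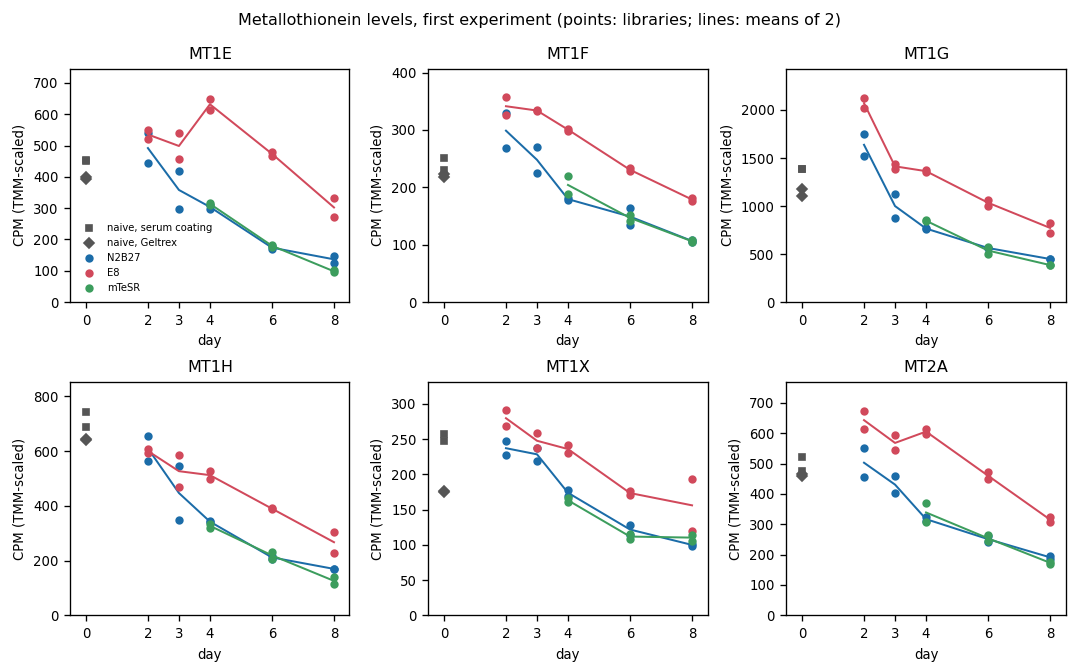
Level of each gene in the libraries of the first experiment, in CPM on TMM-scaled library sizes, against the day of culture. Points are libraries and lines join the means of 2; from day 4 on all E8 points lie above the N2B27 and mTeSR points of the same day.

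The first comparison set each medium and day against naive cells, with the 6 naive libraries of both experiments pooled. In N2B27 and mTeSR the metallothioneins ended well below naive cells at day 8, and in E8 they stayed closer to them. A gene was called when its adjusted p was under 0.05 and it differed more than 2-fold. Of the 6 genes, 3 were called lower in N2B27 at day 6 (all genes: 6.69% called lower) and 4 at day 8 (7.03%), 2 in mTeSR at day 6 (6.87%) and 4 at day 8 (8.2%), and 1 in E8 at day 8 (9.24%). None was called lower in N2B27 at days 2, 3 and 4 (6.3%, 5.83% and 5.96% of all genes), in E8 at days 2, 3, 4 and 6 (10.7%, 5.99%, 7.21% and 7.47%), in mTeSR at day 4 (6.93%), in XAV (6.54%) or in FAX (6.77%). The median log2 fold change of the 6 genes at day 8 was -1.25 in N2B27, -1.43 in mTeSR and -0.35 in E8, where that of all genes was -0.03, -0.02 and 0.00. In N2B27 at day 6 the fall of MT1E (-1.04) dropped under 2-fold without either serum-coated naive library (to -0.97 and -0.96), and so did that of MT1G (to -0.94), which also did without replicate 1 of Geltrex in Ex1 (-0.99). Against naive libraries on Geltrex only, the coating of all capacitated cells, 4 of the 14 calls fell short of 2-fold: MT1E (-0.78) and MT1G (-0.82) in N2B27 at day 6, MT1G in mTeSR at day 6 (-0.89) and MT1H in E8 at day 8 (-0.94).

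MT1H showed the deepest fall of the 6. It encodes an MT1 isoform of the cluster. In naive libraries it ranged from 395 to 744 CPM (median 642, n = 6), and at day 8 it stood at 169 and 169.8 CPM in N2B27, 138 and 113 CPM in mTeSR and 306 and 228 CPM in E8. No day 8 library reached the lowest naive one. The fall was called in all 3 media: log2 fold change -1.80 ± 0.20, adjusted p = 5.54e-09 in N2B27, -2.23 ± 0.21, adjusted p = 1.15e-10 in mTeSR and -1.14 ± 0.19, adjusted p = 8.86e-06 in E8. Without replicate 2 of E8 at day 8 the last value was -0.93, adjusted p = 0.00352, short of 2-fold.

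MT1E, another MT1 isoform, differed most between media. In naive libraries it ranged from 209 to 453 CPM (median 396, n = 6), and at day 8 it stood at 125 and 148 CPM in N2B27, 101 and 95.1 CPM in mTeSR and 273 and 331 CPM in E8. The N2B27 and mTeSR libraries lay below all naive ones, while both E8 libraries lay between the naive libraries of Ex2, below them, and the 4 of Ex1, above them. MT1E was called lower in N2B27 (log2 fold change -1.39 ± 0.22, adjusted p = 2.66e-06) and mTeSR (-1.87 ± 0.23, adjusted p = 2.78e-08) and not in E8 (-0.25 ± 0.20, adjusted p = 0.324), where the naive libraries of Ex1 alone as reference gave -0.48, adjusted p = 0.000259. MT1G was the most abundant of the 6. In naive libraries it ranged from 841 to 1384 CPM (median 1141, n = 6), and at day 8 it stood at 448 and 448 CPM in N2B27, 384 and 386 CPM in mTeSR and 828 and 716 CPM in E8. Its fall was called in N2B27 (-1.33 ± 0.16, adjusted p = 1.5e-08) and mTeSR (-1.55 ± 0.16, adjusted p = 8.34e-10), and in E8 it was lower with less than 2-fold (-0.55 ± 0.15, adjusted p = 0.00281).

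MT2A encodes the only MT2 protein, which many human tissues express. In naive libraries it ranged from 318 to 523 CPM (median 462, n = 6), and at day 8 it stood at 186 and 196 CPM in N2B27, 176 and 169.8 CPM in mTeSR and 323 and 307 CPM in E8. It was called lower in N2B27 (-1.17 ± 0.17, adjusted p = 5.84e-07) and mTeSR (-1.31 ± 0.17, adjusted p = 9.48e-08), with a smaller change in E8 (-0.44 ± 0.16, adjusted p = 0.0204). MT1F and MT1X had the smallest falls in N2B27 and mTeSR at day 8 and were called in none of the 15 comparisons with naive cells. For MT1F the libraries of N2B27 and mTeSR stood below every naive library. In naive libraries it ranged from 136 to 251 CPM (median 220.4, n = 6), and at day 8 it stood at 105 and 108 CPM in N2B27, 108 and 104 CPM in mTeSR and 181 and 177 CPM in E8. Its change passed the adjusted p without reaching 2-fold in N2B27 (-0.92 ± 0.17, adjusted p = 2.6e-05) and mTeSR (-0.93 ± 0.17, adjusted p = 2.86e-05). MT1X had the widest naive range relative to its level. In naive libraries it ranged from 86.6 to 258 CPM (median 175, n = 6), and at day 8 it stood at 101 and 98.9 CPM in N2B27, 114 and 106 CPM in mTeSR and 193 and 119 CPM in E8. At day 8 it gave -0.80 ± 0.25, adjusted p = 0.00898 in N2B27, -0.65 ± 0.25, adjusted p = 0.0321 in mTeSR and -0.15 ± 0.24, adjusted p = 0.637 in E8.

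At the start of capacitation the direction was the opposite for 5 genes in E8 and 2 in N2B27. In E8 at day 2, 5 of the 6 stood higher than in naive cells at an adjusted p under 0.05 (all genes: 24.2%), led by MT1G (2020.4 and 2121 CPM, log2 fold change 0.88 ± 0.14, adjusted p = 4.63e-06) and MT1F (326 and 357 CPM, 0.76 ± 0.15, adjusted p = 0.000126). MT1H was the exception, with 607 and 594 CPM (0.03 ± 0.18, adjusted p = 0.916). In N2B27 at day 2 this held for MT1F (0.56 ± 0.15, adjusted p = 0.00422) and MT1G (0.54 ± 0.14, adjusted p = 0.00338), against 18.9% of all genes. E8 kept 2 genes higher at day 3, MT1F and MT2A (19.5% of all genes), and 3 at day 4, MT1E, MT1F and MT2A (21.4%). None of the 6 was higher by more than 2-fold in E8 at day 2, where 13.9% of all genes were, or at day 4 (13.6%). The libraries of E8 at day 2 stood apart, with totals of 3143033 and 3385716 counts, the lowest scaling factors of all (0.903 and 0.904), 11.7% and 11.9% of counts in ribosomal protein genes and the highest mitochondrial share (3.62% and 3.63%). On plain library totals 3 of the 5 rises held there, those of MT1F (0.61, adjusted p = 0.0014), MT1G (0.73, adjusted p = 6.9e-05) and MT2A (0.44, adjusted p = 0.0159), while MT1E gave 0.43, adjusted p = 0.0711 and MT1X 0.54, adjusted p = 0.0566. The part of depth and of these shares was not tested.

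The naive reference itself varied, since the naive libraries of Ex2 held less of all 6 transcripts, as described further on. Set against the naive libraries of their own experiment, the media of Ex1 gave larger falls at day 8, for instance MT1E in N2B27 (-1.63, adjusted p = 8.52e-14), MT1F in N2B27 (-1.11, adjusted p = 2.55e-11) and MT1X in N2B27 (-1.07, adjusted p = 1.55e-09). The media of Ex2 gave rises, for instance MT1X in XAV (1.24, adjusted p = 4.12e-09), MT1X in FAX (1.16, adjusted p = 1.69e-08) and MT1E in XAV (0.89, adjusted p = 6.27e-07), where the pooled reference gave 0.28, 0.21 and 0.22. The early rises became smaller on the same reference. In N2B27 at day 2 MT1F gave 0.38, adjusted p = 0.00136 and MT1G 0.38, adjusted p = 0.000284, and in E8 at day 4 MT1E gave 0.58, adjusted p = 1.73e-05, in place of 0.82. MT1H in E8 then stood below naive cells already at day 3 (-0.36, adjusted p = 0.017), and at day 2 it gave -0.17, adjusted p = 0.24.

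The second comparison followed each medium from one sampled day to the next, where all steps are within Ex1. None of the 60 differences (6 genes, 10 steps) passed 2-fold with an adjusted p under 0.05, a threshold that 0.804% to 7.56% of all genes passed in a step. By the adjusted p alone, the number of genes lower at the later day was 3 of 6 from day 2 to 3 in N2B27 (all genes: 4.38%), 3 from day 3 to 4 (1.64%), 5 from day 4 to 6 (5.04%) and 3 from day 6 to 8 (1.37%). In E8 it was 1 from day 2 to 3 (9.79%), 0 from day 3 to 4 (0.618%), 5 from day 4 to 6 (2.05%) and 4 from day 6 to 8 (1.28%). In mTeSR it was 6 from day 4 to 6 (3.45%) and 5 from day 6 to 8 (1.02%). No gene was higher at a later day at that threshold.

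MT1G was lower at the later day in all 4 steps of N2B27 by the adjusted p. In N2B27 it went from 1521 and 1754 CPM at day 2 to 871 and 1128 CPM at day 3 (log2 fold change -0.71 ± 0.09, adjusted p = 6.62e-06), and in E8 from 2020.4 and 2121 to 1390.0 and 1436 CPM (-0.55 ± 0.09, adjusted p = 0.000104), the only one of the 6 to do so there. The replicates of N2B27 at day 3 stood apart for several genes, with MT1H at 347 and 547 CPM and MT1E at 298 and 418 CPM, replicate 1 being the lower in all 6. Of the falls from day 2 to 3 in N2B27, 1 of 6 passed without that library, and 4 of 6 did from day 3 to 4. Without replicate 2 the numbers were 4 of 6 and 0 of 6. The falls from day 3 to 4 were also down to 0 of 6 without either library of day 4. No fall of MT1E was detected in E8 before day 4, with 457 and 541 CPM at day 3, 649.8 and 614 CPM at day 4 (0.34 ± 0.12, adjusted p = 0.157) and 468 and 479 CPM at day 6 (-0.42 ± 0.12, adjusted p = 0.0278). The largest step of any of the 6 was that of MT1E in mTeSR, from 177 and 182 CPM at day 6 to 101 and 95.1 CPM at day 8 (-0.87 ± 0.13, adjusted p = 8.24e-05).

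The third comparison asked whether the composition of the medium mattered at equal days. E8 held more metallothionein RNA than N2B27 for all 6 genes from day 4 to day 8. By the adjusted p alone, E8 was higher for 2 of the 6 genes at day 2 (all genes: 7.03%), 4 at day 3 (2.96%), and 6 at day 4 (3.74%), day 6 (7.67%) and day 8 (9.57%). At days 4, 6 and 8 the libraries of both media did not overlap for any of the 6. Separation of 2 libraries from 2 can arise by chance, and its share among all genes was not determined. The median log2 fold change was 0.22, 0.41, 0.79, 0.88 and 0.73 at days 2, 3, 4, 6 and 8, beside a median of all genes between -0.03 and 0.01. At day 2 the number was 0 of 6 on plain library totals, where MT1G gave 0.22, adjusted p = 0.0918 and MT2A 0.24, adjusted p = 0.0864. At day 3 the number was 0 of 6 without replicate 1 of N2B27, 5 of 6 without replicate 2, and 3 and 2 of 6 without replicate 1 and 2 of E8. Only MT1E passed 2-fold, at days 4, 6 and 8, where 1.36%, 2.31% and 3.33% of all genes were higher by that rule.

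MT1E stood at 649.8 and 614 CPM in E8 and 298 and 309 CPM in N2B27 at day 4 (log2 fold change 1.06 ± 0.12, adjusted p = 4.14e-07). At day 6 it was 468 and 479 against 179 and 169 CPM (1.45 ± 0.12, adjusted p = 1e-09), the widest gap of any of the 6 between these media. MT2A, at day 4, measured 598 and 613 CPM in E8 and 323 and 311 CPM in N2B27 (0.93 ± 0.10, adjusted p = 1.4e-07). The gap in MT1G at day 4 was of similar size, with 1372 and 1354 CPM in E8 and 766 and 764 CPM in N2B27 (0.83 ± 0.09, adjusted p = 3.36e-07).

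The smaller gaps were those of MT1F (299 and 302 against 178 and 181 CPM at day 4, 0.74 ± 0.11, adjusted p = 1.82e-05), MT1H (497 and 527 against 344 and 340.3 CPM, 0.58 ± 0.14, adjusted p = 0.00703) and MT1X (229.7 and 242 against 169 and 178 CPM, 0.44 ± 0.12, adjusted p = 0.0218). The MT1X difference at day 4 lost its adjusted p when any 1 of the 4 libraries was left out (0.101 to 0.151), and that of MT1H without replicate 2 of either medium (0.063 and 0.0766). At day 8 MT1X rested on 1 library, with 193 and 119 CPM in E8 and 101 and 98.9 CPM in N2B27: without replicate 1 of E8 the log2 fold change went from 0.65 to 0.24, adjusted p = 0.207. At day 6 the MT1X difference (0.51 ± 0.13, adjusted p = 0.00532) became 0.42, adjusted p = 0.106 without replicate 2 of N2B27. Leaving out replicate 1 of E8 took MT1H at day 8 from 0.66 ± 0.14, adjusted p = 0.00123 to 0.41, adjusted p = 0.1.

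mTeSR, the other commercial medium, did not share the high levels of E8. At day 4, 5 of the 6 genes were lower in mTeSR than in E8 by the adjusted p, in a comparison in which only 30 of 16674 genes (0.18%) were lower. All 6 were lower at day 6 (1.28% of all genes) and at day 8 (6.82%). The libraries did not overlap for any of the 6 at the 3 days (share of all genes not determined). MT1E alone passed 2-fold at day 4 (0.078% of all genes) and day 6 (0.474%), and MT1E, MT1G and MT1H at day 8 (2.79%). MT1E measured 311 and 317 CPM in mTeSR at day 4 (log2 fold change -1.01 ± 0.12, adjusted p = 7.58e-06), 177 and 182 CPM at day 6 (-1.40 ± 0.12, adjusted p = 5.45e-09) and 101 and 95.1 CPM at day 8 (-1.62 ± 0.13, adjusted p = 1.8e-10). MT2A, with 307 and 370.2, 244 and 263 and 176 and 169.8 CPM at days 4, 6 and 8, differed from E8 by -0.84, -0.86 and -0.87 (log2; adjusted p = 7.58e-06, 1.4e-06 and 5.15e-07). At day 4 the weaker differences depended on single libraries: MT1H lost its adjusted p of 0.0364 without any 1 of the 4 libraries, and MT1F (0.0121) without either E8 library or replicate 1 of mTeSR. At day 8, MT1X went from -0.51 to -0.10, adjusted p = 0.738 without replicate 1 of E8 and to -0.46, adjusted p = 0.108 without replicate 2 of mTeSR, and at day 6 to -0.60, adjusted p = 0.0659 without replicate 1 of mTeSR. Without replicate 1 of E8 at day 8, MT1G (-0.88) and MT1H (-0.85) fell short of 2-fold, as MT1H did without replicate 2 of mTeSR (-0.95), and at day 4 so did MT1E without replicate 1 of E8 (-0.97) or of mTeSR.

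Between mTeSR and N2B27 few differences passed the test. By the adjusted p, 0 of 6 differed at day 4 (all genes: 4.73%), 0 at day 6 (9.06%) and 1 at day 8 (10.9%), the last being MT1E, lower in mTeSR (log2 fold change -0.48 ± 0.13, adjusted p = 0.015). The libraries of both media overlapped for all 6 genes at day 6 and for 1 at day 4 and at day 8. At day 4, 3 genes were above and 2 below N2B27 in both mTeSR libraries, and at day 8, 4 were below and 1 above. The share of all genes separated in this way was not determined. The 95% confidence intervals of the log2 fold change at day 6 bound the difference: -0.21 to 0.30 for MT1E, -0.26 to 0.12 for MT1G and -0.19 to 0.22 for MT2A. The gaps of N2B27 to E8 at that day were 1.45, 0.88 and 0.87 for the same genes.

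**Figure D3:**
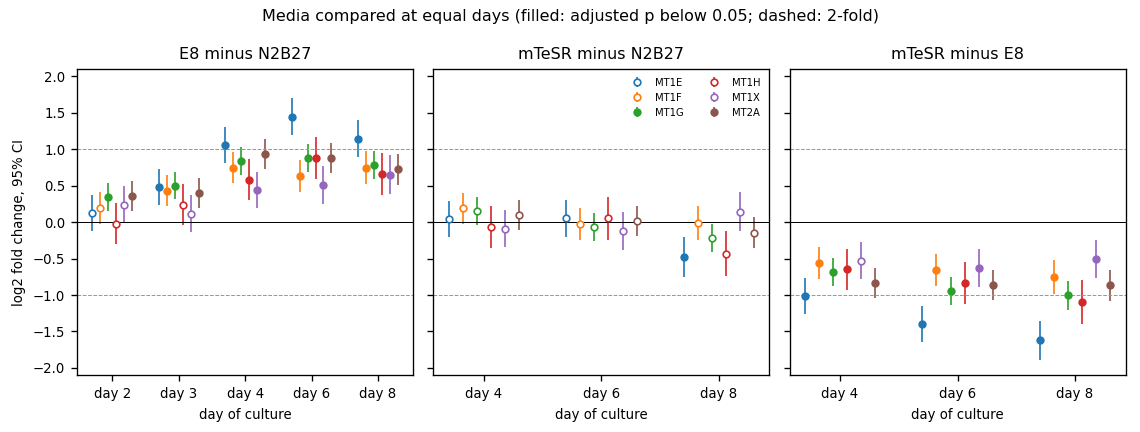
Log2 fold change of each gene between media at equal days of the first experiment, with 95% confidence intervals; filled points have an adjusted p under 0.05 and dashed lines mark 2-fold. E8 minus N2B27 is above 0 for all 6 genes from day 4 on, mTeSR minus N2B27 stays near 0 at days 4 and 6, and mTeSR minus E8 is below 0 at all 3 days.

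Whether the gap between E8 and N2B27 changed over the days was tested directly, as an interaction of medium and day over days 2 to 8. The courses differed for 5 of the 6 genes (all genes: 11%), with adjusted p = 1.01e-05 for MT1E, 0.0081 for MT2A, 0.0118 for MT1H, 0.0137 for MT1G and 0.0369 for MT1F. For MT1X it was 0.161. The gap of MT1E widened from 0.12 at day 2 to 1.45 at day 6 on the log2 scale, and that of MT1H from -0.02 to 0.88. MT1F lies near the threshold, since RLE scaling gave an adjusted p of 0.0513.

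Markers of other lineages moved with the medium at the late days. Markers of hypoblast or endoderm (GATA4, GATA6, SOX17, PDGFRA, FOXA2 and APOA1) summed to 169 to 192 CPM in N2B27, 83.6 to 85.2 CPM in mTeSR and 18.3 to 22.6 CPM in E8 at day 8. All 6 of these markers were called lower in E8 than in N2B27 (all genes: 3.96%). Trophectoderm markers (GATA3, GATA2, CDX2, TFAP2A and KRT7) summed to 58.6 to 70.2 CPM in N2B27, 10.9 to 11.4 CPM in mTeSR and 13.4 to 18.5 CPM in E8. Of these, 4 of 4 tested were called lower in E8 than in N2B27 (all genes: 3.96%). Their part in the metallothionein differences between media was not tested at any day. At day 4 the endoderm markers summed to 6.05 to 6.25 CPM in N2B27, 3.52 to 7.11 CPM in mTeSR and 5.31 to 6.03 CPM in E8. The trophectoderm markers summed to 27.7 to 28.7, 25.6 to 27.3 and 26.1 to 27.7 CPM in the same order. At day 4 up to 4 of the 6 endoderm markers were at 0 counts in a library, among them SOX17 in both mTeSR libraries. The primed markers differed between the media at both days, with 256 to 260.0 CPM in N2B27, 192 to 231 CPM in mTeSR and 175 to 212 CPM in E8 at day 4, and 588 to 671, 429 to 447 and 389 to 414 CPM at day 8. Of these 4 markers, 1 was called lower in E8 than in N2B27 at day 4 (all genes: 1.13%) and 2 at day 8 (3.96%), and their part was not tested. Fibroblast markers (COL1A1, COL1A2, COL3A1, THY1 and S100A4) summed to 226 to 229 CPM in N2B27, 225 to 241 CPM in mTeSR and 193 to 216 CPM in E8 at day 8. In naive libraries they summed to 1.98 to 4.08 CPM. Over all libraries COL1A2 reached 147 CPM, COL1A1 68.8 CPM and THY1, which the paper uses as a primed marker, 131 CPM. COL3A1 and S100A4 reached only 3.6 and 3.28 CPM. The part of this rise was not tested.

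In the second experiment N2B27 was compared at day 4 with the same medium plus XAV939 (XAV) or plus FGF2, Activin A and XAV939 (FAX). No difference was detected for the 6 genes: by the adjusted p, 0 of 6 differed between XAV and N2B27 (all genes: 1.34%), 0 between FAX and N2B27 (0.846%) and 0 between FAX and XAV (0.012%). MT1E had the largest difference in both, with 449 and 488 CPM in N2B27, 429 and 408 CPM in XAV and 377 and 408 CPM in FAX. Its log2 fold change was -0.16 in XAV (95% interval -0.41 to 0.08, adjusted p = 0.772) and -0.25 in FAX (-0.50 to -0.01, adjusted p = 0.54). Fitted to the compared libraries alone, MT1E gave adjusted p = 0.0361 and 0.00558. Both FAX libraries lay below both N2B27 libraries for 5 of 6 genes, all but MT1F, and both XAV libraries did for 3 of 6. How many of all genes separated likewise was not determined. MT2A stood at 493 and 497 CPM in N2B27, 482 and 539 CPM in XAV and 451 and 489.6 CPM in FAX, with intervals of -0.16 to 0.25 for XAV and -0.28 to 0.13 for FAX on the log2 scale. E8 and mTeSR were not sampled in Ex2 and were not compared with XAV or FAX.

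Naive cells and N2B27 at day 4 were sampled in both experiments, and the metallothioneins differed between them in opposite directions. Naive cells on Geltrex held less in Ex2 than in Ex1 for 6 of 6 genes by the adjusted p (all genes: 7.86%). MT1X was 92.3 and 86.6 CPM in Ex2 and 176 and 174 CPM in Ex1 (log2 fold change -0.97 ± 0.13, adjusted p = 6.26e-06), and MT1E 209 and 242 against 392 and 400.0 CPM (-0.81 ± 0.12, adjusted p = 3.1e-05). N2B27 at day 4 held more in Ex2 for 5 of 6 (1.78% of all genes), for instance MT2A with 493 and 497 CPM in Ex2 and 323 and 311 CPM in Ex1 (0.64 ± 0.10, adjusted p = 0.000212). The differences of MT1F (0.49) and MT1H (0.51) rested on single libraries, with adjusted p up to 0.0959 and 0.208 when 1 was left out. MT1X, the sixth, gave 0.34 ± 0.12, adjusted p = 0.125. The libraries of both experiments did not overlap for any of the 6 in either condition (share of all genes not determined).

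The change from naive cells on Geltrex to N2B27 at day 4 differed between the experiments. At day 4 the libraries lay below the naive ones for 5 of 6 genes in Ex1, with overlap for MT1X. In Ex2 the day 4 libraries lay above the naive ones for 6 of 6. The share of all genes was not determined for either count. MT2A went from 466 and 459 to 323 and 311 CPM in Ex1 and from 318 and 333 to 493 and 497 CPM in Ex2. MT1H went from 639 and 645 to 344 and 340.3 CPM in Ex1 and from 395 and 423 to 473 and 499 CPM in Ex2. The difference of these changes was called for 5 of the 6 genes (all genes: 2.85% called higher), and ranged on the log2 scale from 0.91 for MT1G (adjusted p = 1.74e-05) to 1.44 for MT1E (adjusted p = 1.14e-06), with a median of 1.15 and 0.01 for all genes. The pooled comparison of N2B27 at day 4 with naive cells averages these unlike values, with 0.10 for MT1E and -0.08 for MT2A.

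**Figure D4:**
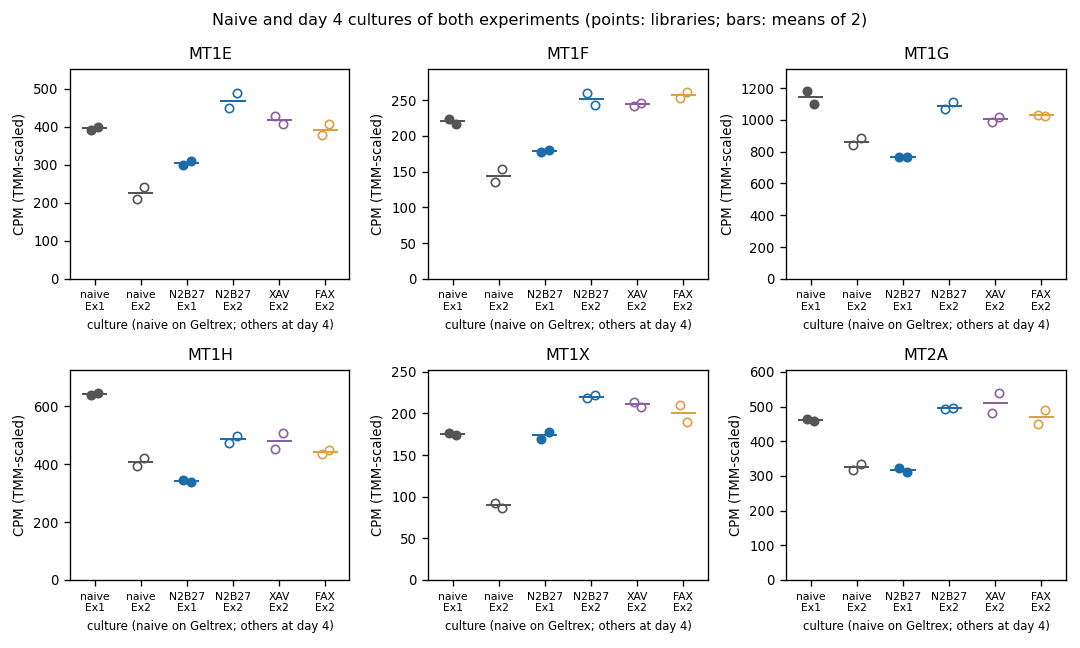
Level of each gene in CPM in naive cells on Geltrex and at day 4 of N2B27 in the first (Ex1, filled) and second (Ex2, open) experiment, with XAV and FAX of the second; points are libraries and bars the means of 2. In Ex1 the day 4 points lie below the naive points, apart from MT1X, where they overlap, and in Ex2 all day 4 points lie above the naive points.

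Other features of these libraries moved along. The naive libraries of Ex2 had totals of 3038046 and 3642536 counts, among the lowest (4529909 and 5577221 for naive cells on Geltrex in Ex1), 21018 and 21759 detected genes (22775 and 23688) and 12.3% of counts in ribosomal protein genes in each (10.6% and 10.7%). Of the 7 heat shock genes listed, 5 were called with a larger change in Ex2 (median 1.40, all genes: 2.85% called). Among them was HSPA8, a constitutive chaperone, with 383 and 431 CPM in naive cells of Ex2 and 1055 and 1045 CPM in Ex1. The part of depth, of the ribosomal share or of the heat shock genes in the metallothionein difference was not tested. The coating made less difference. All 6 genes were lower on Geltrex than on serum in both libraries of Ex1 (share of all genes not determined). By the adjusted p, 0 of 6 differed (all genes: 0.174%). MT1X, with 176 and 174 CPM on Geltrex and 247 and 258 CPM on serum, came nearest (-0.53 ± 0.12, adjusted p = 0.0556, and 0.00704 with DESeq2).

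The remaining genes and pseudogenes of the family were far lower. Of the 14 listed, 9 passed the filter, and MT4 and MT1CP had 0 counts in all 38 libraries, which allows up to 0.518 to 1.06 CPM each (3 counts). MT1M and the pseudogene MT1JP were the most abundant, with 10.3 to 90.3 CPM and 4.18 to 52.2 CPM over all libraries. Against naive cells at day 8, 7 of the 9 were called lower in N2B27 (median -1.54), 7 in mTeSR (-1.60) and 0 in E8 (-0.37), the percentages of all genes being those given above. Between E8 and N2B27, 2 were called higher in E8 at day 4, 5 at day 6 and 1 at day 8, while MT3 was called lower at day 6 (2.49%, 5.28% and 7.29% of all genes were called in either direction).

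MT1M, an MT1 isoform, stood at 48.4 and 59.4 CPM in E8 and 28 and 25.3 CPM in N2B27 at day 6 (log2 fold change 1.02 ± 0.18, adjusted p = 0.000119). MT1JP, whose transcripts share 5 of the 50-base windows of MT1E, stood at 31 and 37.7 against 6.23 and 8.63 CPM (2.20 ± 0.28, adjusted p = 1.58e-06). The pseudogene read counts may include reads of MT1E. MT1M and MT1JP were also among the 30 genes lower in mTeSR than in E8 at day 4 (-1.01 ± 0.16, adjusted p = 0.00146 and -1.06 ± 0.24, adjusted p = 0.0461). MT3, the isoform best known from brain, was highest in mTeSR at day 8. It was at 32 and 49 counts (8.65 and 13.7 CPM) at day 8, at 1 and 6 counts in N2B27 and at 5 and 2 counts in E8 on that day. The difference of MT3 was called against E8 (adjusted p = 0.000394; 5.31% of all genes called) and against N2B27 (adjusted p = 0.000375).

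Among the genes of metal handling, SLC30A1, the zinc exporter of the plasma membrane and a target of MTF1, differed between the media in the same direction as the metallothioneins. At day 8 it stood at 75.7 and 72 CPM in E8, 37.1 and 45.7 CPM in N2B27 and 40.6 and 45.7 CPM in mTeSR. E8 exceeded N2B27 by 0.83 ± 0.14, adjusted p = 4.18e-05 and mTeSR against E8 gave -0.78 ± 0.14, adjusted p = 0.000244, on the log2 scale. E8 was also above N2B27 at day 4 (0.71 ± 0.13, adjusted p = 0.000713) and day 6 (0.72 ± 0.14, adjusted p = 0.000435), with no difference detected at days 2 and 3 (-0.24 ± 0.14, adjusted p = 0.285 and -0.03 ± 0.13, adjusted p = 0.936). Against naive cells, no difference was detected in N2B27 at day 8 (-0.12 ± 0.23, adjusted p = 0.716). Between experiments it also differed, with 23.1 and 26.5 CPM in naive cells of Ex2 against 47 and 44.1 CPM in Ex1, and a difference in the day 4 change of 1.47 ± 0.21, adjusted p = 1.21e-05.

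MTF1 itself was low, at 13.5 to 31.9 CPM, and no difference between E8 and N2B27 was detected, with log2 fold changes of -0.10 at day 4, -0.21 at day 6 and 0.29 at day 8 (adjusted p = 0.831, 0.56 and 0.347). Of the 5 genes listed as MTF1 and its targets, none was called between E8 and N2B27 at days 4, 6 and 8 (medians -0.10, 0.09 and 0.29). Of all genes, 2.49%, 5.28% and 7.29% were called in either direction at these days. Zinc exporters (7 of 10 tested) had 1 called higher in E8 than in N2B27 at day 8 (all genes: 3.33%), SLC30A3, which loads zinc into vesicles (1.08 ± 0.27, adjusted p = 0.00398). Zinc importers (11 of 14 tested) and copper genes (9 of 9 tested) had 0 called at that day. Of the 9 iron genes 1 was called (all genes: 3.96% called lower), SLC40A1, the iron exporter ferroportin. It was lower in E8, with 1.86 and 0.469 CPM against 11 and 8.99 CPM in N2B27 (adjusted p = 0.000366).

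**Figure D5:**
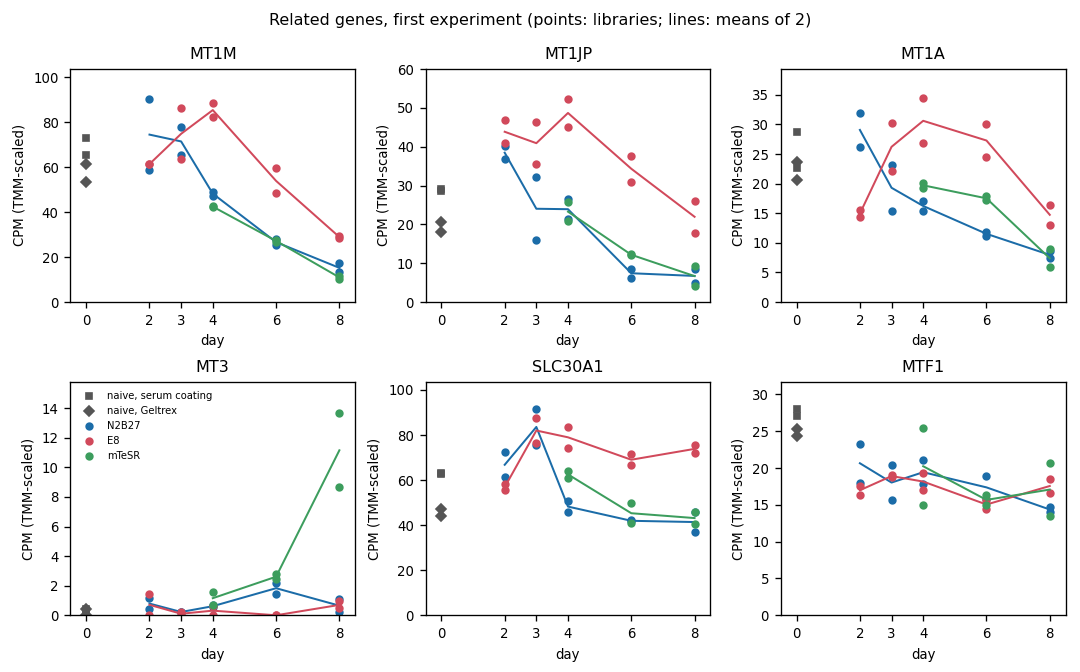
Levels in CPM of 4 further metallothionein genes, of the zinc exporter SLC30A1 and of MTF1 in the libraries of the first experiment, against the day of culture; points are libraries and lines join the means of 2. MT1M, MT1JP, MT1A and SLC30A1 lie higher in E8 than in N2B27 and mTeSR at days 6 and 8, and MT3 reaches its highest level in mTeSR at day 8.

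Genes that respond to other known inputs of the metallothioneins were listed as well. Of all genes, 2.49%, 5.28% and 7.29% were called between E8 and N2B27 at days 4, 6 and 8. Of 7 tested glucocorticoid-responsive genes, none was called between E8 and N2B27 at days 4 and 6, and KLF9 was called lower in E8 at day 8 (-1.51 ± 0.29, adjusted p = 0.000297). FKBP5, TSC22D3 and PER1, classical targets of the glucocorticoid receptor, gave 0.03, 0.31 and -0.59 at day 6 (log2; adjusted p = 0.941, 0.109 and 0.18). Of 7 tested targets of NRF2, a transcription factor of the response to oxidative stress, 1 was called higher in E8 at day 6, SRXN1 (1.32 ± 0.19, adjusted p = 5.68e-06), and the list had medians of 0.26, 0.60 and 0.51 at days 4, 6 and 8. None of the 7 heat shock genes was called at these days (medians 0.06, 0.16 and 0.12).

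Against naive cells at day 8 the heat shock list was lower in part: 3 of 7 were called lower in N2B27 (median -0.59, all genes 7.03% called lower), 4 in mTeSR (-1.15, 8.2%) and 4 in E8 (-1.13, 9.24%). Among them HSPA1A, an inducible chaperone, gave -1.50 in N2B27, -1.77 in mTeSR and -1.38 in E8 (adjusted p = 5.87e-05, 1.2e-05 and 0.000137). SLC39A8, a zinc and manganese importer, was called higher at day 8 in N2B27 (2.97; 16.9% of all genes called higher), mTeSR (3.31; 16.9%) and E8 (2.51; 18.2%). SLC39A14, a related importer, was called higher in E8 at day 8 (1.37 ± 0.12, adjusted p = 1.53e-11).

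The 6 genes varied together. Over the 19 group means of log2 CPM, Pearson's r between pairs ranged from 0.795 (MT1H and MT1X) to 0.975 (MT1E and MT2A). The groups share an experiment, a culture and partly reads of near-identical copies, so that these values are a description. Outside the family, the genes with the most similar pattern among 7129 genes with a mean of at least 20 CPM were RNF125, a ubiquitin ligase, which was among the 3 nearest to MT1E, MT1F, MT1G and MT2A (r = 0.895, 0.923, 0.922 and 0.92), CYCS, which encodes cytochrome c, for MT1E and MT2A (0.908 and 0.896), and FGFR3, an FGF receptor, for MT1F and MT2A (0.931 and 0.887). MT1H was nearest to LARP4 (0.949), HAT1 (0.939) and TRIM60 (0.935), MT1X to CHORDC1 (0.937), SAFB (0.924) and DPH3 (0.915), MT1E also to MTATP6P1, a copy of a mitochondrial gene (0.902), MT1F also to SREK1 (0.929), and MT1G to HSD17B10 (0.932) and TOMM6 (0.928).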

How the data were processed

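Per the labels and the study's methods, the authors sequenced QuantSeq 3′ libraries as single reads of 50 bases, processed them with the nf-core rnaseq workflow (STAR 2.7.10a, Salmon 1.9.0, FastQC 0.11.9, hg38) and deposited 1 table of raw gene counts, which are whole numbers with no normalization. The gene annotation is not given in the sources used here. Counts were fitted in R 4.3.3 with edgeR 4.0.16 (filterByExpr, TMM, quasi-likelihood F-test), once with 16 levels of medium and day for comparisons with naive cells and once with 19 groups for all others, and p-values were adjusted (Benjamini-Hochberg) over 16674 genes per comparison. Genes were called at an adjusted p under 0.05 and more than 2-fold; where said, the adjusted p was used alone. Standard errors and 95% intervals derive from the F statistic. Fits were tested on simulated data. The 6 genes and the lists were chosen with earlier results of these data known. The named genes are the 6, those lists, and the 3 genes most alike each of the 6. Windows and positions come from GENCODE 44 and promoters from RefSeq. Alternatives were RLE scaling, plain totals, other filters, DESeq2 1.42.0, a replicate block, the experiment as a covariate, other naive libraries, the compared libraries alone and leaving out each library. Floors cover counting error only, as reads without molecular identifiers are not independent molecules.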

Additional observations from a re-analysis of the deposited data

Results flagged for a closer look

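Differences between courses and between experiments were tested as such and are listed here because each passed its test, with an interaction fitted in edgeR over all 16674 genes. The courses of E8 and N2B27 over days 2 to 8 differed for MT1E (adjusted p = 1.01e-05), MT2A (0.0081), MT1H (0.0118), MT1G (0.0137) and MT1F (0.0369). The change from naive cells on Geltrex to N2B27 at day 4 was larger in the second experiment than in the first by 1.44 for MT1E, 1.31 for MT1X, 1.16 for MT1H, 1.15 for MT2A, 1.09 for MT1F and 0.91 for MT1G on the log2 scale. For all 6 genes both naive libraries of the second experiment were lower, and both of its day 4 libraries higher, than those of the first. The share of all genes for which this held was not determined.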

How the results depend on the processing

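Of 90 values against naive cells, 14 were called with all 6 naive libraries, 22 with those on serum coating only, 21 with those of the same experiment and 13 with those on Geltrex only, which lost 4 of the 14 for want of 2-fold; by the adjusted p alone the number was 43, with 68 against the naive libraries of the same experiment or of Geltrex only, and 28 in fits to the compared libraries alone. Between mTeSR and N2B27, 1 of 18 passed, with 2 under RLE scaling, a filter of more than 10 counts in 2 libraries, no filter, the compared libraries alone or DESeq2, 3 on plain library totals and 0 to 2 when a library was left out (0 without replicate 2 of N2B27 or of mTeSR at day 8, 2 without replicate 1 of mTeSR at day 8). Between the media of the second experiment 2 of 18 passed in fits to the compared libraries alone, both for MT1E. Between coatings 1 of 6 passed on plain totals and with no filter, and 2 with DESeq2. With the other counts the alternatives stayed within 1.5 times: E8 against N2B27 at days 4 to 8 gave 17 to 18 of 18, mTeSR against E8 16 to 18 of 18, consecutive days 27 to 37 of 60 and unequal courses 4 to 5 of 6. Leaving out 1 library gave 16 to 18, 15 to 17, 28 to 36 and 4 to 6 for these, and 12 to 17 calls against naive cells. Over 68 values for single genes and 884 recomputations, 830 kept their direction and side of the threshold, 50 dropped below it, 4 passed it and 0 reversed. The 68 values are the 2-fold calls, E8 against N2B27 at days 4 to 8, mTeSR against E8 and the differences between experiments. All other comparisons, among them the early rises, consecutive days and mTeSR against N2B27, are not included. On plain library totals 27 of 114 group levels moved by at least the SD of their group. The replicate numbers do not pair the libraries (mean correlation of deviations of same-numbered libraries 0.00501), and the replicate block gave 14 calls against naive cells and changed none of the 68 single values. The cause of these shifts was not tested.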
